A study of Schizosaccharomyces pombe with 4 samples.

Results

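The early-replicating interior windows were the 2 kb stretches of the fission yeast (Schizosaccharomyces pombe) chromosome arms that took up the most bromodeoxyuridine (BrdU), a thymidine analogue, when S phase was slowed with hydroxyurea. They were chosen by level: a window needed at least 3 probes, a place over 100 kb from the first and last probe of its chromosome and outside the centromeres and their flanks, and a log2 ratio (immunoprecipitate over input) that averaged above 0.6 over all 4 arrays, where 0 is the median probe of an array. Of 5567 interior windows 590 met this rule (10.6%), out of 6223 windows measured on the 3 chromosomes. The name "early" comes from the rule and not from a time course, since a single collection time was sampled.

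There were 2 arrays carrying the label fft3Δ, for cdc25-22 cells in which fft3, encoding a SNF2-family chromatin remodeller, is given as deleted. The 2 wild-type arrays were of cdc25-22 cells with no fft3 deletion given, so all 4 shared the temperature-sensitive cdc25-22 allele, which holds cells before mitosis at 37 °C, and the thymidine kinase (Pnmt1-TK) and nucleoside transporter (Padh1-hENT) modules that let yeast use BrdU. Cells were returned to 26 °C with 10 mM hydroxyurea and 200 µM BrdU and were collected at 120 min, per the labels. Each genotype gave an array in series 1 and another in series 2. Nothing in the labels ties a series to its own culture, so the p-values measure only the spread between these arrays, which may be technical.

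DNA replication begins at many origins along each chromosome, and fission yeast origins are AT-rich stretches, mostly between genes, that bind the origin recognition complex. Origins fire at different times in S phase and with different efficiencies, and a given origin fires in only some of the cells. Hydroxyurea depletes deoxynucleotides, so that forks move slowly and late origins are held back by the replication checkpoint. A high BrdU signal under the drug therefore marks origins used early and often, together with the DNA their forks have reached.

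Signal strength and array pairs set the limits of what follows. The array had 41551 probes, and the median Cy3 (input) signal lay 17.3 to 217 times over the local background. Wild-type array 2 stood apart in its input, whose log2 signal had an SD over windows of 0.34, against 0.63 to 0.67 on the other 3 arrays. Over all windows the log2 ratios correlated at 0.95 between the arrays labelled fft3Δ and at 0.90 between the wild-type arrays, while labelled fft3Δ array 2 and wild-type array 1 correlated at 0.97. Arrays of different genotype were thus the closest pair. The deleted gene could not be placed, because the array's build is not named, and no run of 12 adjacent probes, the span of fft3, lost 1 log2 unit of input in both series (lowest value reached in both, -0.28). The arrays are therefore called "labelled fft3Δ", and each direction is that of the label.

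Early windows stood well above the rest of the arms on every array. The values below describe the choice and carry no test, since these levels made it. The median early window had a log2 ratio of 0.72 on labelled fft3Δ array 1 and 0.70 on labelled fft3Δ array 2, against 0.76 on wild-type array 1 and 0.75 on wild-type array 2. Across windows the ratio ran from 0.07 to 1.49 on labelled fft3Δ array 1 and from 0.45 to 1.51 on labelled fft3Δ array 2, and from 0.13 to 1.31 on wild-type array 1 and from 0.18 to 1.67 on wild-type array 2. Other interior windows had medians between -0.08 and -0.07 on the 4 arrays. All 4 arrays exceeded 0.6 in 257 early windows (43.6%), 3 arrays in 215, 2 arrays in 97 and 1 array in 21, so most of the set had at least 1 array below the threshold.

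**Figure D1:**
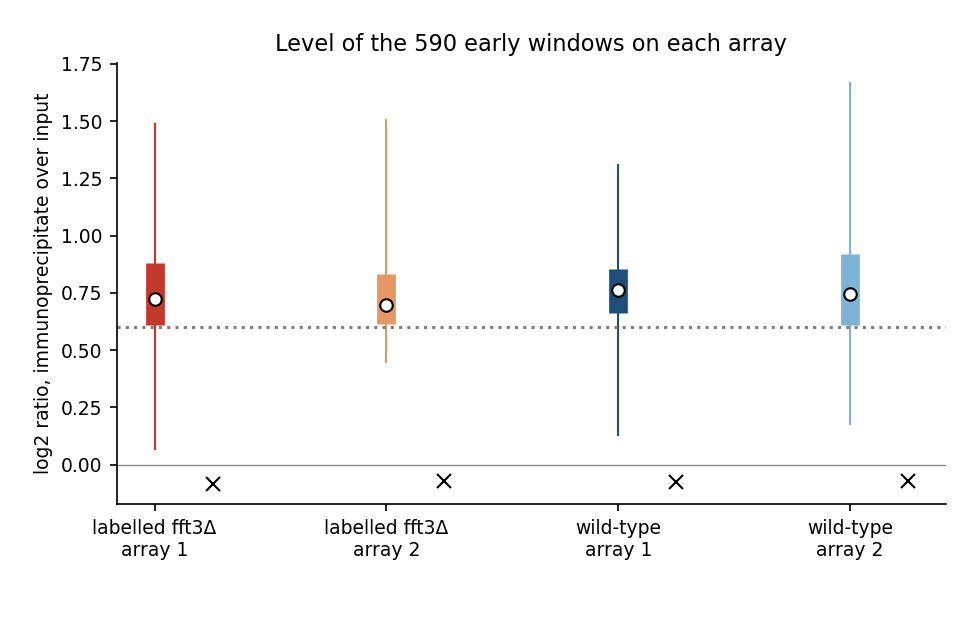
Log2 ratio of immunoprecipitate over input in the 590 early windows on each array. Thin lines span the lowest to the highest window, thick bars the middle 50%, circles mark medians and crosses the median of the other interior windows; the dotted line is the threshold of 0.6, and medians lie between 0.70 and 0.76 on all 4 arrays.

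Windows near the threshold looked alike on both sides of it. Just inside, the window from 128001 to 130000 of chromosome 3 had ratios of 0.67 and 0.62 in the arrays labelled fft3Δ (arrays 1 and 2), against 0.64 and 0.48 in wild type. The next inside, 1780001 to 1782000 of chromosome 2, had 1.03 and 0.55 in the arrays labelled fft3Δ, against 0.46 and 0.36 in wild type. Just outside, 966001 to 968000 of chromosome 3 had 0.89 and 0.64 in the arrays labelled fft3Δ, against 0.41 and 0.45 in wild type. The next outside, 1100001 to 1102000 of chromosome 1, had 0.44 and 0.57 in the arrays labelled fft3Δ, against 0.72 and 0.66 in wild type. At each of these 4 windows the arrays lay on both sides of the threshold.

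Most windows chosen on some of the arrays were also above the threshold on the arrays not used to choose them. Windows over 0.6 in the mean of series 1 numbered 717, and 62.1% of them were also over 0.6 in series 2, where 10.2% of all interior windows were. Windows chosen in series 2 numbered 567, and 78.5% were over 0.6 in series 1, against 12.9% of all interior windows. None of the windows chosen in either series fell below 0 in the other. Of 618 windows chosen in the arrays labelled fft3Δ, 68.1% were over 0.6 in wild type, against 11.6% of all interior windows. Of 644 chosen in wild type, 65.4% were over 0.6 in the arrays labelled fft3Δ, against 11.1%.

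Both channels entered the ratio, and both were high in early windows on 3 arrays. Median log2 input, centred on each array's median, was 0.51 and 0.47 on labelled fft3Δ arrays 1 and 2, against 0.46 and 0.006 on wild-type arrays 1 and 2. The immunoprecipitate (Cy5) was at 1.34 and 1.25 in the arrays labelled fft3Δ, against 1.33 and 0.78 in wild type. On wild-type array 2 both channels were lower, by similar amounts, so that its ratio stayed close to the others. In the other interior windows input lay between -0.14 and -0.02 on all 4 arrays. Probe number was like that of the other windows, with a median of 7, but 18 early windows (3.05%) had under 6 probes, against 29 other interior windows (0.58%).

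Chromosome 3, the shortest, held 255 of the 590 early windows, 25.8% of its interior. Chromosome 1 held 195 (7.64%) and chromosome 2 140 (6.91%). By arm the share ran from 3.54% on the right arm of chromosome 2 to 26.3% on the right arm of chromosome 3. The left arm of chromosome 2, at 13.3%, held a larger share than its right arm, and the arms of chromosome 1 had 6.61% (left) and 9.96% (right). Blocks of 100 kb were counted where they held at least 40 interior windows. All 18 such blocks of chromosome 3 held an early window, with a median of 15.5. By contrast, 19 of 50 blocks of chromosome 1 and 17 of 40 of chromosome 2 held none. The fullest block lay at 200001 to 300000 of chromosome 3, with 24 of 50 windows. On chromosome 1 the block from 3500001 to 3600000 came to 21 of 50, the highest count outside chromosome 3.

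Merging windows that touch gave 270 clusters with a mean length of 4.37 kb. A single window made up 148 clusters (54.8%), but these held only 25.1% of the early windows. Clusters of 5 or more windows, 10 kb or longer, numbered 27 and held 31.4%. Level and length went together in part: the median cluster mean was 0.68 for single windows, 0.73 for clusters of 2 to 4 windows and 0.80 for the longer ones (Pearson r = 0.34 between length and level over 270 clusters, which share arrays and neighbours, given as a description).

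Neighbouring clusters of an arm lay a median of 12 kb apart, centre to centre (264 spacings, middle 50% from 7 to 38.5 kb). The medians were 15 kb on chromosome 1, 12 kb on chromosome 2 and 11 kb on chromosome 3. The long distances set the chromosomes further apart. On the right arm of chromosome 2 the upper quartile was 99 kb, against 22 kb on the right arm of chromosome 3. A single 2 kb window below the threshold separated 86 of the neighbouring pairs, and merging across such windows gave 184 clusters with a median spacing of 30 kb. Windows of 1 kb gave 550 clusters and windows of 4 kb 120, so the count and the spacing depend on these settings.

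**Figure D2:**
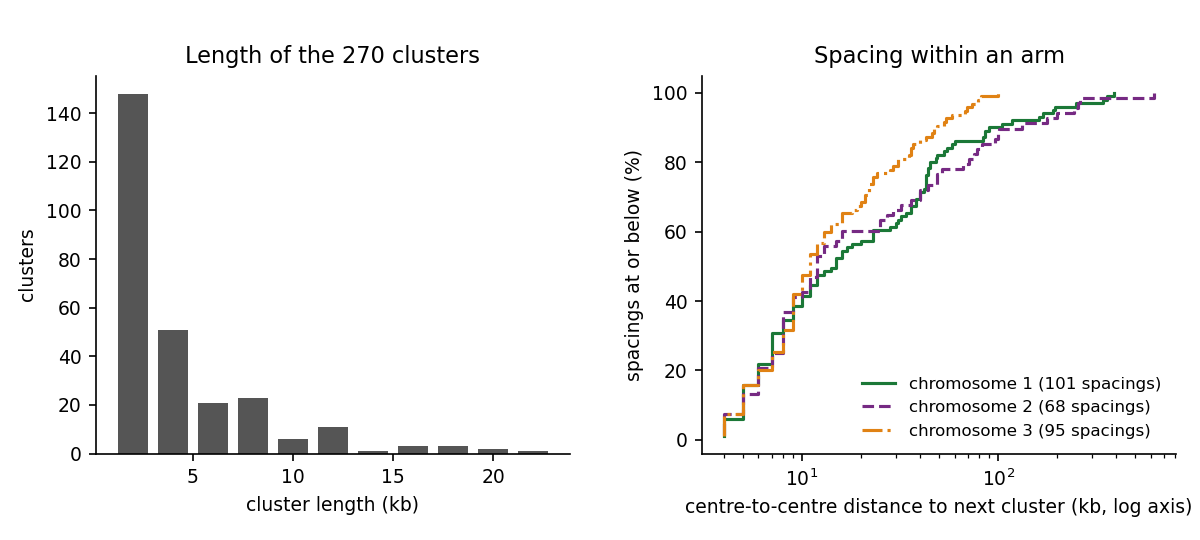
Length of the 270 clusters of touching early windows (left, in kb) and the cumulative share of centre-to-centre distances to the next cluster of the same arm (right, in kb on a log axis) for each chromosome. Of the clusters 148 are 2 kb long and the longest is 22 kb; the curve of chromosome 3 ends at the shortest distance, and those of chromosomes 1 and 2 run on past it.

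Gaps over 100 kb between neighbouring clusters of an arm numbered 16. Stretches before an arm's first cluster, which starts at 840001 on chromosome 1, or after its last were not counted. The longest gap, 624 kb, ran from 2804001 to 3428000 of chromosome 2. Its windows had medians of -0.37 and -0.42 on labelled fft3Δ arrays 1 and 2, against -0.41 and -0.42 on wild-type arrays 1 and 2. The gap of 386 kb from 1860001 to 2246000 of chromosome 1 had medians of -0.42 and -0.49 in the arrays labelled fft3Δ, against -0.46 and -0.53 in wild type. The gap of 356 kb from 2442001 to 2798000 of the same chromosome had -0.22 and -0.28, against -0.22 and -0.29 in wild type. Gaps were not silent throughout, since their highest windows had 4-array means of 0.56, 0.55 and 0.58, just under the threshold. All 4 arrays placed these long stretches below the median probe.

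The longest clusters had moderate means, with single windows well above and below them. The longest, 2056001 to 2078000 of chromosome 3 (22 kb), averaged 0.83 and 0.77 on labelled fft3Δ arrays 1 and 2, against 0.72 and 0.73 on wild-type arrays 1 and 2. The 20 kb cluster from 1938001 to 1958000 of chromosome 2 averaged 0.73 and 0.75 in the arrays labelled fft3Δ, against 0.80 and 0.74 in wild type. The 20 kb cluster from 4068001 to 4088000 of chromosome 1 averaged 0.71 and 0.70, against 0.81 and 0.80 in wild type. In the first of these both labelled arrays lay above both wild-type arrays, in the second the groups overlapped, and in the third both labelled arrays lay below. The 18 kb clusters, of which 1390001 to 1408000 and 1806001 to 1824000 lie on chromosome 3 and 3400001 to 3418000 on chromosome 1, had 4-array means of 0.78, 0.74 and 0.72. Their differences, labelled fft3Δ minus wild type, were 0.037, 0.092 and 0.034.

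The 5 clusters with the highest means had 1 to 6 windows. At 3300001 to 3302000 of chromosome 1 the single window had 1.27 and 1.30 on labelled fft3Δ arrays 1 and 2, against 0.83 and 0.88 on wild-type arrays 1 and 2. At 2438001 to 2440000 of chromosome 2 the values were 0.69 and 1.04 in the arrays labelled fft3Δ, against 1.14 and 1.31 in wild type. Both windows separated the genotypes without overlap, in opposite directions. The cluster from 202001 to 214000 of chromosome 3 had 1.03 and 0.99 in the arrays labelled fft3Δ, against 0.85 and 1.08 in wild type. That from 522001 to 528000 of chromosome 2 had 1.03 and 0.997, against 0.85 and 1.05 in wild type, so that in both of these the groups overlapped. The remaining one of the 5 highest, 688001 to 698000 of chromosome 2, is described with the largest differences.

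Signal fell away from early windows most steeply within the first 10 kb, and was lower still further out. Windows 2 kb from the nearest early window had medians of 0.52 and 0.45 on labelled fft3Δ arrays 1 and 2, against 0.46 and 0.39 on wild-type arrays 1 and 2. At 10 kb the medians were 0.020 and 0.065 in the arrays labelled fft3Δ, against 0.093 and 0.15 in wild type. The difference between genotypes changed sign along the way: at 2 kb its median was 0.047 in series 1 and 0.030 in series 2, and at 10 kb -0.050 and -0.081. From 4 to 24 kb the median was below 0 in both series at each distance. The first step contains a part of the rule, because a neighbour of an early window lies below 0.6 by construction. Over 30 kb from an early window, where 43.2% of the interior lay, the medians were -0.37 and -0.39 in the arrays labelled fft3Δ, against -0.40 and -0.38 in wild type.

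**Figure D3:**
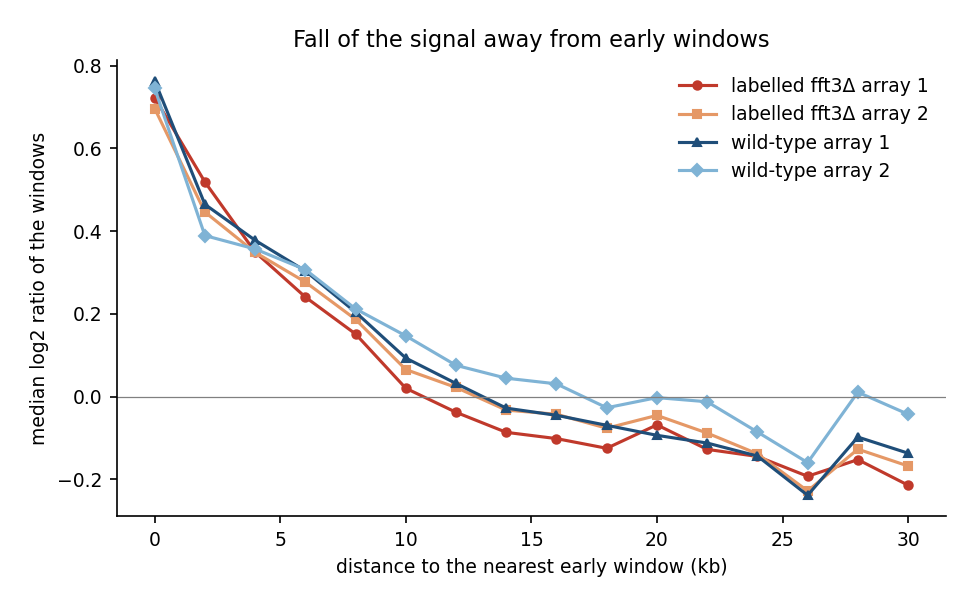
Median log2 ratio of interior windows (y axis) by distance to the nearest early window (x axis, kb, 0 being the early windows themselves) on each of the 4 arrays. All 4 curves start between 0.70 and 0.76 at 0 kb and lie between 0.020 and 0.15 at 10 kb, and labelled fft3Δ array 1 is the highest at 2 kb and the lowest at 10 kb.

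The comparison of genotypes asked whether BrdU uptake at early stretches differed without Fft3; the rule weighted both genotypes alike, so this difference was not what chose the windows. The median early window of an array stood at 0.71 ± 0.02 under the label fft3Δ and at 0.75 ± 0.01 under wild type (SD, n = 2 arrays per genotype), a labelled fft3Δ minus wild type difference of -0.045. The difference was -0.041 in series 1 and -0.049 in series 2, with no overlap of the genotypes (two-sided exact permutation test over arrays, p = 0.333, the smallest that 2 arrays against 2 allow). By chromosome it was -0.039, -0.044 and -0.043 for early windows of chromosomes 1, 2 and 3, with no test between them. It depended on how the windows were chosen and on the processing. Choosing windows from the arrays labelled fft3Δ gave 0.029, choosing them from wild type gave -0.086, and choosing them in series 1 gave 0.0014. A choice on 1 genotype favours high values in that genotype, so the opposite signs of 0.029 and -0.086 were favoured by the choice itself. The Cy5 signal alone gave 0.24, and normexp background correction -0.28.

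With genotype as the only term in limma, no early window reached an adjusted p below 0.05, as none of the 6223 windows did (0 called, a background of 0%). At an unadjusted p under 0.05 the labelled arrays were lower in 29 early windows and higher in 17. That is 4.92% and 2.88% of the early windows, against 1.17% and 3.82% of all windows tested, which include chromosome ends and centromeres. Of the 4977 other interior windows 36 were lower and 119 higher. In either direction this was 3.11% of them, against 7.80% of the early windows. The 4 arrays of an early window spanned a median of 0.299 log2 units, and the median standard error of a window's difference was 0.14. Labelled fft3Δ array 1 gave the lowest value in 197 early windows and the highest in 164, and wild-type array 2 the lowest in 162 and the highest in 195. Both arrays thus lay often at either extreme.

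Group separation was counted next. The labelled pair was entirely below the wild-type pair in 164 early windows (27.8%), against 19.2% of all windows. It was entirely above in 88 (14.9%), against 15.4%. Of the 734 interior windows with a mean ratio of 0.4 to 0.6, 25.1% were entirely below and 14.4% entirely above. Separation downwards was therefore nearly as common just under the threshold as in early windows. Of those 734 windows 51.5% had a lower mean in the labelled arrays. Both series gave a lower value in the labelled array in 203 early windows (34.4%, against 31% of all windows), and a higher one in 140 (23.7%, against 27.2%). The median window difference was -0.042 in early windows, -0.015 over all windows and -0.019 in the other interior windows. In all, 59.8% of the early windows were lower in the labelled arrays, against 53.6% of all windows. That share was 75.3% with centring on the mode, which set the median of all windows at -0.103. It was 83.6% with normexp background correction and 7.63% with Cy5 alone, where the median of all windows was -0.038 and 0.021. Neighbouring windows and shared arrays leave these shares without a test.

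With the series, which is also the scanner, as a block, limma put 19 early windows at an adjusted p below 0.05 (3.22%, against 2.97% of all windows). They comprised 13 lower (2.2%, against 0.434% of all windows) and 6 higher (1.02%, against 2.54%). They lay in 15 clusters, with differences from -0.72 to -0.45 and from 0.45 to 0.68. In all 13 lower windows the input of the labelled array was the higher of the pair in both series. The Cy5 signal of the labelled array was lower in series 1 in all 13, and higher in series 2 in 12 of them. Higher values in series 2 were general, since over all 590 early windows the median difference there was 0.48 in Cy5 and 0.46 in input, against 0.0095 and 0.024 in series 1. In the 6 higher windows Cy5 was higher in both series and the input of series 1 was lower. Input is the denominator of the ratio, so calling windows for a lower ratio favours lower Cy5 and higher input. Calling them for a higher ratio favours the reverse. The part of the input in these calls was not tested.

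**Figure D4:**
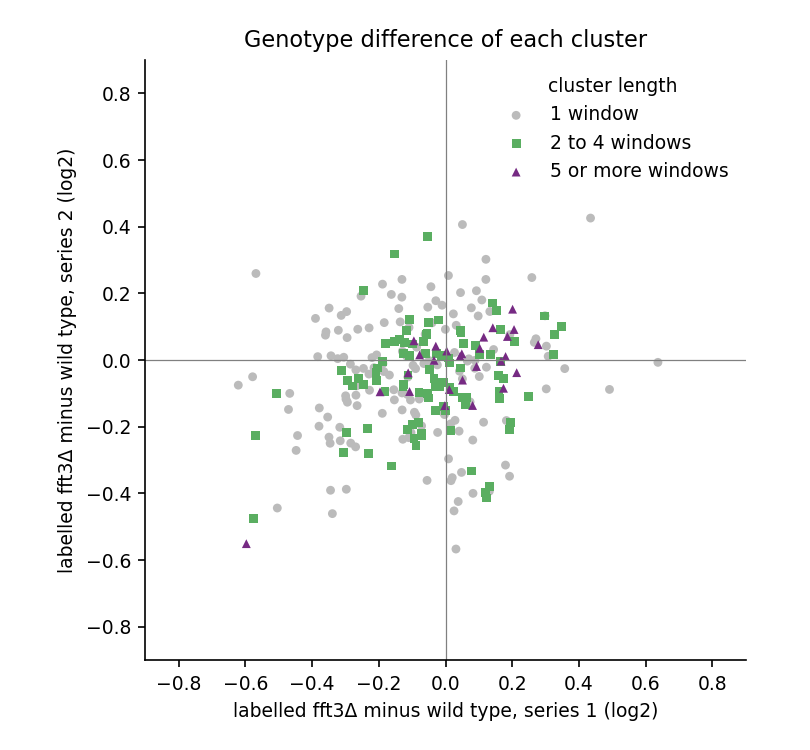
Difference in log2 ratio, labelled fft3Δ minus wild type, of each of the 270 clusters in series 1 (x axis) and series 2 (y axis), by cluster length. The lowest mean over both series belongs to the 5-window cluster of chromosome 2, at -0.60 in series 1 and -0.55 in series 2, and 116 of the points lie in the quadrants where the series have opposite signs.

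Among clusters, 104 were lower in both series, 50 were higher in both and 116 had opposite signs (r = 0.19 between the series over 270 clusters, as a description). The median difference was 0.027 for the 27 clusters of 5 or more windows, -0.039 for clusters of 2 to 4 and -0.087 for single windows. Counted over windows in place of clusters it was -0.0001 for the 185 windows of the long clusters, of which 93 were lower. Of the 27 long clusters 6 were lower and 11 higher in both series, whereas of the 148 single windows 58 were lower and 24 higher. By window, 27.6% of those in long clusters were lower and 34.1% higher in both series, against 39.2% and 16.2% of the single windows. Over all windows these shares were 31% and 27.2%. Within long clusters the outer windows had medians of 0.76 and 0.73 on labelled fft3Δ arrays 1 and 2, against 0.77 and 0.81 on wild-type arrays 1 and 2. Inner windows had 0.83 and 0.80 in the arrays labelled fft3Δ, against 0.78 and 0.81 in wild type. No test of the difference between cluster lengths was made.

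The largest negative difference was that of the cluster from 688001 to 698000 of chromosome 2, which was also among the 5 highest. It averaged 0.47 and 0.98 on labelled fft3Δ arrays 1 and 2, against 1.07 and 1.54 on wild-type arrays 1 and 2, a difference of -0.60 in series 1 and -0.55 in series 2. Both labelled arrays were below both wild-type arrays, but labelled fft3Δ array 2 and wild-type array 1 were close. From 690001 to 698000 the ratio was nearly flat, at 0.37, 0.38, 0.38 and 0.40 in the 4 windows of labelled fft3Δ array 1, and at 1.64, 1.67, 1.64 and 1.57 in those of wild-type array 2. These 4 windows had 7, 4, 3 and 3 probes, where 7 is usual. Their differences of -0.67, -0.72, -0.68 and -0.62 had an adjusted p of 0.885 each in limma with genotype alone, and 0.00042 to 0.0023 in limma with the series as a block. Input of the cluster differed by 0.31 in series 1 and by 1.46 in series 2, and Cy5 by -0.27 and 0.97, so only in series 1 was the immunoprecipitate lower. The difference was -0.32 without labelled fft3Δ array 1 and -0.34 without wild-type array 2, but -0.83 without labelled fft3Δ array 2 and -0.81 without wild-type array 1.

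**Figure D5:**
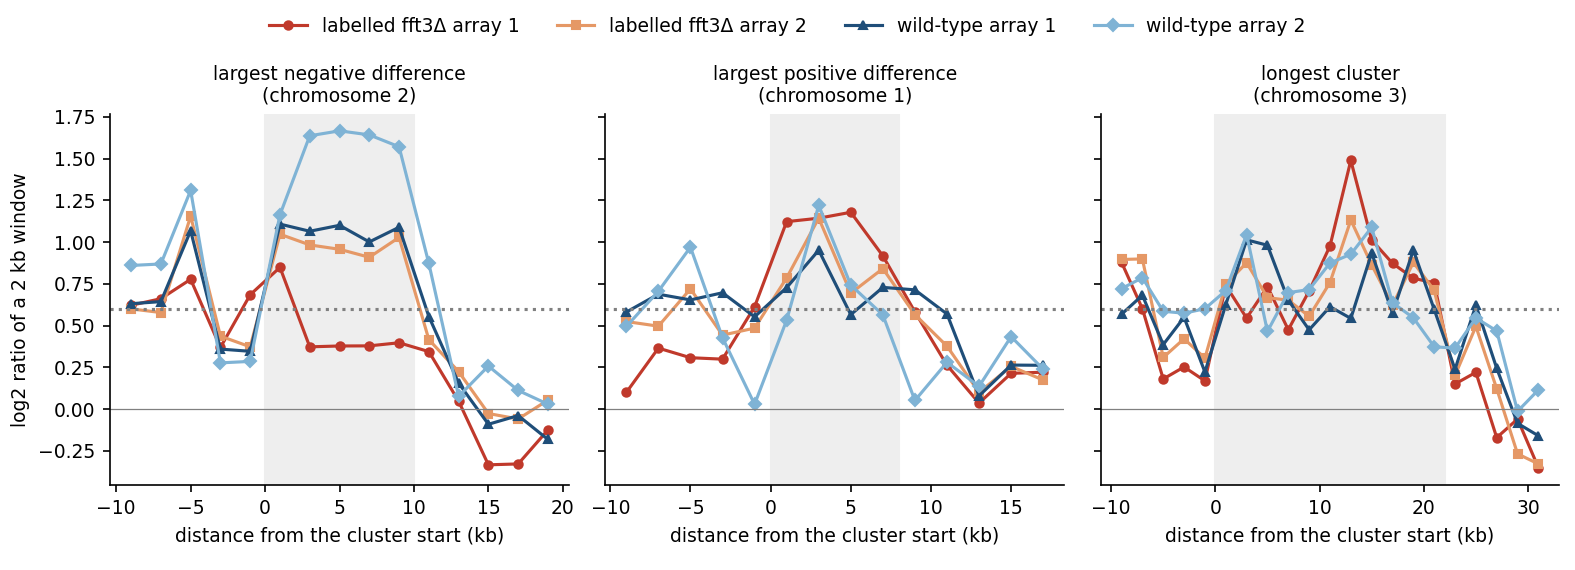
Log2 ratio of each 2 kb window (y axis) by distance from the cluster start (x axis, kb) on the 4 arrays, for the cluster with the largest negative difference, that with the largest positive one among clusters of 2 or more windows, and the longest; grey marks the cluster and the dotted line the threshold of 0.6. From 2 kb to the end of the cluster in the left panel, labelled fft3Δ array 1 runs flat near 0.38 and wild-type array 2 near 1.64. The other arrays lie between them near 1.

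The other 5 large negative differences, among clusters of 2 or more windows with the same sign in both series, ran from -0.53 to -0.26. Single-window clusters, left out of this list, reached -0.47. The pair of windows from 960001 to 964000 of chromosome 3 averaged 0.21 and 0.79 on labelled fft3Δ arrays 1 and 2, against 0.78 and 1.27 on wild-type arrays 1 and 2, and the groups overlapped. The next window, 964001 to 966000, had 0.82 and 0.68 in the arrays labelled fft3Δ, against 0.48 and 0.40 in wild type, so that a window above wild type adjoined a pair below or level with it. The pair from 3304001 to 3308000 of chromosome 1 averaged 0.39 and 0.66 in the arrays labelled fft3Δ, against 0.96 and 0.89 in wild type. It lies 2 kb from the highest single window, whose difference was 0.43, so opposite differences adjoined here as well. The clusters 3500001 to 3506000 (chromosome 1), 1250001 to 1254000 (chromosome 2) and 710001 to 714000 (chromosome 3) differed by -0.30, -0.29 and -0.26, with no overlap of the groups. In all 6 clusters Cy5 was lower in series 1 (-0.30 to -0.11) and higher in series 2 (0.26 to 0.97), and input was higher in both; the series 2 signs were those of early windows in general. Choosing clusters by a fall in the ratio favours lower Cy5 and higher input. Leaving out labelled fft3Δ array 1 brought the 6 differences to between -0.32 and -0.088. Without labelled fft3Δ array 2 they lay between -0.83 and -0.32. They ran from -0.81 to -0.28 without wild-type array 1, and from -0.43 to -0.21 without wild-type array 2.

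Among clusters of 2 or more windows the largest positive differences were smaller than the largest negative ones. The cluster from 5150001 to 5158000 of chromosome 1 averaged 1.09 and 0.87 on labelled fft3Δ arrays 1 and 2, against 0.74 and 0.76 on wild-type arrays 1 and 2. That from 1750001 to 1758000 of chromosome 2, beside the excluded centromeric stretch, averaged 0.95 and 0.96 in the arrays labelled fft3Δ, against 0.65 and 0.83 in wild type. The cluster from 716001 to 726000 of chromosome 3 averaged 1.04 and 0.97, against 0.84 and 0.82 in wild type. In each of the 3 both labelled arrays lay above both wild-type arrays. Those at 838001 to 842000 and 1452001 to 1460000 on chromosome 2, and at 3570001 to 3586000 on chromosome 1, had differences of 0.20, 0.17 and 0.16. The lowest adjusted p of any window in these 6 clusters was 0.885 in limma with genotype alone. With the series as a block, 1 window of the 6 clusters was called, 3576001 to 3578000 of chromosome 1, with a difference of 0.68 and an adjusted p of 0.0018 (limma). The 6 cluster differences ran from 0.20 to 0.35 in series 1 and from 0.018 to 0.15 in series 2, and 5 of the 6 changed sign with normexp. In series 1 Cy5 was higher (0.13 to 0.19) and input lower (-0.17 to -0.086) in all 6, and in series 2 both Cy5 (0.74 to 1.04) and input (0.56 to 0.85) were higher. Choosing clusters by a rise in the ratio favours higher Cy5 and lower input.

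Input level moved with the genotype difference in series 2, in early windows and over all windows. With the early windows ranked by mean input and cut into 3 groups of 196 or 197, the median difference in series 2 was 0.026 in the lowest group, -0.016 in the middle one and -0.14 in the highest. In series 1 the corresponding medians were -0.044, -0.079 and 0.031, with no such order. Over all 6223 windows, grouped in the same way, the series 2 medians were 0.055, -0.034 and -0.093. Between the lowest and the highest group the median ratio went up less on labelled fft3Δ array 1 (0.71 and 0.78), labelled fft3Δ array 2 (0.67 and 0.75) and wild-type array 1 (0.75 and 0.77) than on wild-type array 2 (0.63 and 0.92). Over the 590 windows the correlation of mean input with the difference was -0.43 in series 2 and 0.055 in series 1, and over all windows -0.26 and -0.024, as a description of windows that share the arrays. The input is also the denominator of the ratio, so these values are not independent of it, and its part in the genotype difference was not tested.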

How the data were processed

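BrdU immunoprecipitate (Cy5) and input (Cy3) were hybridised together on 4 two-colour arrays, without a dye swap. The deposited scanner files, made with Agilent Feature Extraction (versions 11.5 and 12.0 per the file headers), hold processed intensity values that were background-subtracted and dye-normalized by linear factors, and a log10 ratio of Cy5 over Cy3. The deposited series matrix holds the same linear ratio, which matched to within 0.013 on the log2 scale, with no centring. Flags of unit other in the deposited files mark non-uniform and dim spots. Non-uniform spots numbered 617 on wild-type array 2, against 4 to 7 on the other arrays.

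Per the labels, both DNAs were amplified by random-primed PCR. Each array's log2 ratios of processed signal had their median subtracted, without loess, and were averaged in 2 kb windows. Control spots were left out. Windows were fitted with limma 3.58.1 (lmFit and eBayes, R 4.3.3) on genotype alone, the p-values being Benjamini-Hochberg adjusted across 6223 windows, after the script was tested on simulated data. The arrays of a series share a scanner, and their deviations from the genotype means correlated at 0.37 over all windows and 0.18 over early windows, so series was tried as a block. In series 2 the arrays lay on different slides, and version 11.5 was used for wild-type array 2 only, so genotype cannot be told apart from slide and version there. Members, lists and named clusters (6 longest, 5 highest, 6 largest negative and 6 largest positive differences of 2 or more windows with the same sign in both series) were chosen with earlier results of these data known. Positions are those of the array design, whose build is not given in the sources used here; a probe at 2453700 lies past the end of chromosome 3 of the reference at hand (2452883 bp), so no gene or sequence was assigned.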

Additional observations from a re-analysis of the deposited data

How the results depend on the processing

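With 2 arrays per genotype the exact test cannot pass any threshold, and separate cultures are not named in the labels. No early window was called with genotype alone under normexp, loess, Cy5 alone, mode centring, the series matrix, probes well above background, or uniform spots (0 in each), and 19 were called with series as a replicate block. The median difference of -0.045 was -0.28 with normexp, -0.019 with loess, 0.24 with the Cy5 signal alone and -0.13 with centring on the mode. It was -0.020, -0.061 and -0.063 at thresholds of 0.4, 0.8 and 1.0, and 0.0014, -0.077, 0.029 and -0.086 with windows chosen from series 1, series 2, the arrays labelled fft3Δ and wild type. A choice on 1 genotype favours high values in it, so the last 2 values were pushed in opposite directions by the choice. Leaving out an array leaves 1 array of a genotype, assumed to vary like the other genotype's pair; no early window was then called, and without wild-type array 1 40 of all windows were. The median difference was then -0.058 to -0.032, and the cause of the other changes was not tested. The level of 0.73, averaged over the arrays' medians, was 0.85 with normexp, 0.48 with loess, 1.18 with Cy5 alone and 0.509 with mode centring. The 270 clusters became 112 and 30 at thresholds of 0.8 and 1.0, 550 and 120 with windows of 1 and 4 kb, 143 with loess and 97 with mode centring. With normexp 5 of the 6 largest positive differences changed sign, and with Cy5 alone 5 of the 6 largest negative ones did. With normexp 83.6% of the early windows were lower in the labelled arrays, with mode centring 75.3% and with Cy5 alone 7.63%, against 59.8% as reported.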
